A study of Rattus norvegicus with 6 samples.

Results

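The transcripts described here belong to Kit signaling and the PI3K and mTOR route through which it acts in the growth of primordial follicles. The 9 genes were chosen by name: *Kit*, *Kitlg*, *Foxo3*, *Tsc1*, *Tsc2*, *Mtor*, *Akt1*, *Pdpk1* and *Rps6kb1*. They are 9 of 15154 named genes on the array and were read by 12 of its 30367 features, a feature being all spots that carry the same probe. *Kitlg* was read by 3 features, *Tsc2* by 2 and each of the other genes by 1.

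Whole ovaries of female Wistar rat pups were compared on postnatal day (PND) 7. The LPS group had received 0.05 mg/kg lipopolysaccharide of Salmonella enterica intraperitoneally on PNDs 3 and 5, and the saline group an equal volume of saline on the same days, with 3 single-colour Agilent arrays in each group. LPS is an outer membrane component of Gram-negative bacteria that Toll-like receptor 4 recognises. Whole litters were given one treatment and few litters were used, so litter and treatment cannot be told apart. Each group held more animals than arrays, the animals behind each array are not given in the sources used here, and the p-values measure only the spread between these arrays.

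Most follicles of the neonatal rat ovary are primordial, a resting oocyte within a flat layer of pregranulosa cells. Kit ligand from the granulosa cells binds the receptor Kit on the oocyte, PI3K then activates Akt, and Akt drives the transcription factor Foxo3 out of the nucleus and relieves the brake that Tsc1 and Tsc2 place on mTOR, after which the follicle leaves its resting state. Most of these steps are phosphorylations, whereas the arrays measured transcript levels only, and in RNA of a whole organ fewer cells of a type and less RNA per cell cannot be told apart.

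The sequences upstream of the ligand and receptor genes are shown because these were the members with the largest differences. Both were read from RefSeq (GRCr8) as the 250 bases before the annotated start of the gene, 5′ to 3′ on the gene's strand. *Kitlg* lies on the plus strand at chr7:36782410-36782659 and *Kit* on the minus strand at chr14:32978813-32979062. Capitals mark each match, on either strand, to a GC box (GGGCGG) or a TATA box (TATAAA).
Kitlg: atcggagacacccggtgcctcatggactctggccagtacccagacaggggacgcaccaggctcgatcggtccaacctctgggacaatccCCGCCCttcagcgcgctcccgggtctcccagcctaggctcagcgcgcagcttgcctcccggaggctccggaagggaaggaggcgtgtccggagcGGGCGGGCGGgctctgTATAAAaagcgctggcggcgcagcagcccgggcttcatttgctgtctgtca
Kit: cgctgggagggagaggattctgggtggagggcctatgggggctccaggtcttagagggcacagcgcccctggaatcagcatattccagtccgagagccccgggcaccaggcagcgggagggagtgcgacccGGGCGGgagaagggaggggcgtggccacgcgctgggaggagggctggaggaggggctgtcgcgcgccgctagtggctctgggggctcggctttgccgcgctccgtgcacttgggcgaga

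The *Kitlg* window held 3 GC box matches. Counted back from the start, so that -1 is the base just before it, the first began at position -161 on the opposite strand, and the other two began at positions -67 and -63 and overlapped each other. It also held a TATA box match that began at position -51. The *Kit* window held 1 GC box match, at position -119, and no TATA box match. The table held a promoter for 8 of the 9 genes, all but *Foxo3*, and the counts that follow are over windows of 300 bases, from 250 before to 50 after the start. A GC box match was found in 5 of the 8 members against 33.1% of all 33469 windows, and a TATA box match in *Kitlg* alone among the members against 14.2% of all windows. A CCAAT box (CCAAT) was found in *Mtor* and *Pdpk1*, 2 of the 8, against 37.5%, an E-box (CACGTG) in 0 of the 8 against 6.42%, and a FOXO motif (GTAAACA) in *Tsc1*, 1 of the 8, against 3.78%. The member windows were 55.0% to 74.7% G and C, where the median of all windows was 51.7%. These matches are descriptions of letters, and no binding was measured.

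Of the 9 genes, only the ligand *Kitlg* passed an unadjusted p under 0.05, and it was higher in the LPS-treated ovaries by 1.48-fold. Its receptor *Kit* was measured 1.42-fold higher, with groups that overlapped and an interval that included 0 on the log2 scale. The 7 genes downstream of the receptor lay within 0.14 of 0 on the log2 scale. No member reached a 2-fold difference, and none passed after Benjamini-Hochberg adjustment over all features. Among all named genes, 2.45% were higher and 13.2% lower at an unadjusted p under 0.05, 1.76% also differed by at least 2-fold, and 0% passed after adjustment. Among the 9695 named genes well above background on all 6 arrays, 1.73% were higher and 2.73% lower at that p. The smallest adjusted p of any feature on the array was 0.271 (limma).

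All levels are log2 values of the processed signal, where 0 is the 75th percentile of the same array, so that -1 stands for a signal 2-fold below it. They compare arrays for 1 feature and cannot be set against another feature. Where the levels of a list of markers are summed below, the unlogged values are added. The brightest features weigh most in such a sum, which is given as a description only. A feature was called well above background on an array where the scanner software called most of its spots so. The feature used for each gene was well above background on all 6 arrays for 8 members. That of *Tsc1* passed this on all 3 arrays with LPS and on 2 of the 3 with saline.

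**Figure D1:**
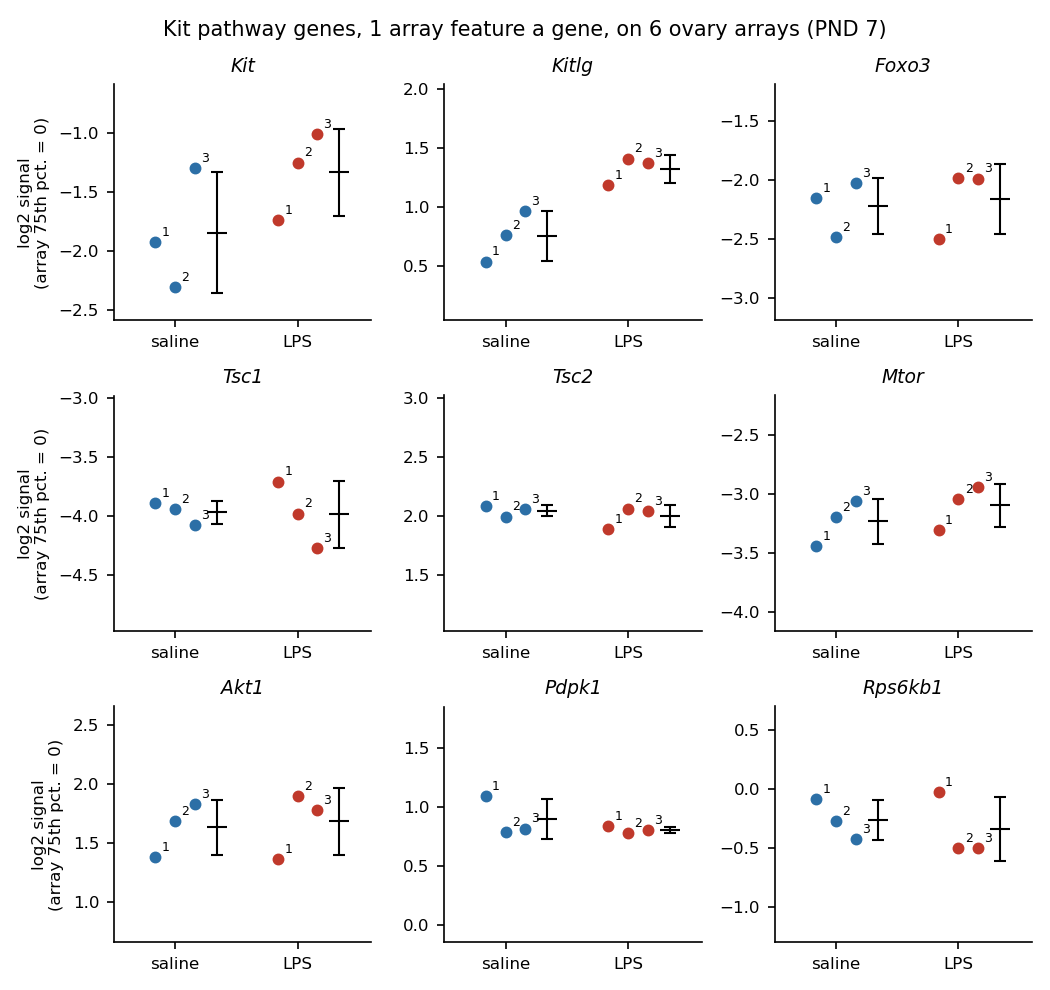
Log2 signal of the brightest feature of each of the 9 genes on the 3 saline and 3 LPS arrays, with 0 at the 75th percentile of each array, points for single arrays and a bar with error for the group mean and SD. Each panel spans 2 log2 units, and the groups are separate for Kitlg alone (LPS 1.19 to 1.41, saline 0.54 to 0.97).

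*Kitlg* encodes Kit ligand, also called stem cell factor. On its brightest feature the log2 signal was 1.19, 1.41 and 1.37 on LPS replicates 1, 2 and 3, and 0.54, 0.76 and 0.97 on saline replicates 1, 2 and 3. Every LPS array lay above every saline array, and saline replicate 1 was the lowest of the 6. The mean was 1.33 ± 0.12 (SD, n = 3) with LPS and 0.76 ± 0.22 (SD, n = 3) with saline. The log2 fold change was 0.57 (standard error 0.18, 95% interval 0.13 to 1.01), with an adjusted p of 0.271 in limma. In limma the unadjusted p was 0.0188. The exact permutation test of this single feature (two-sided) gave 0.1, the smallest p that 3 arrays against 3 allow. Groups that did not overlap, with LPS above, were also found for 5.31% of all named genes, and with LPS below for 17.9%. Among genes well above background on all arrays these shares were 5.72% and 7.06%.

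The other features of *Kitlg* did not show this difference. The second gave log2 signals of -3.73, -4.13 and -4.58 with LPS and -3.90, -4.66 and -3.75 with saline. These values overlapped widely, and the feature was not well above background on saline replicate 2. Its log2 fold change was -0.04 (standard error 0.33, 95% interval -0.82 to 0.74). The third, with 1 spot, was well above background on no array, so no fold change is given for it. The probe sequences are not in the files used here, so which part of the *Kitlg* transcript each feature reads was not compared. The mean over the 3 features differed by a log2 of -0.039, and the mean over the pair above background one of 0.26 (standard error 0.19).

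On its brightest feature *Kitlg* stayed higher with LPS whichever single array was left out, but whether it passed an unadjusted p under 0.05 depended on the array. Leaving out 1 array at a time gave log2 fold changes of 0.46 to 0.67, and the unadjusted p was 0.0738 without LPS replicate 2, 0.0521 without LPS replicate 3 and 0.0504 without saline replicate 1. The slide had arrays in separate rows, one with LPS replicates 2 and 3, the other with LPS replicate 1 and all saline arrays. With the row as a block, which compares LPS replicate 1 with the 3 saline arrays of its row, the log2 fold change was 0.43 (standard error 0.26).

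*Kit* encodes the receptor tyrosine kinase that binds Kit ligand, and in the ovary it is known from the oocyte and from theca and interstitial cells. Its log2 signal was -1.73, -1.25 and -1.01 on LPS replicates 1, 2 and 3, and -1.92, -2.31 and -1.30 on saline replicates 1, 2 and 3. The groups overlapped, since saline replicate 3 lay above LPS replicate 1. The means were -1.33 ± 0.37 (SD, n = 3) and -1.84 ± 0.51 (SD, n = 3) and differed by a log2 of 0.51 (standard error 0.32, 95% interval -0.25 to 1.27, adjusted p = 0.535 in limma). This interval runs from 0.841-fold to 2.41-fold, and so takes in both no difference and a 2-fold one.

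The size of the *Kit* difference moved with single arrays. It was 0.28 without saline replicate 2 and 0.78 without saline replicate 3, where the unadjusted p in limma was 0.0401. Without LPS replicates 1, 2 and 3 it was 0.71, 0.47 and 0.35. Within the slide row that held both groups it was 0.11 (standard error 0.41).

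**Figure D2:**
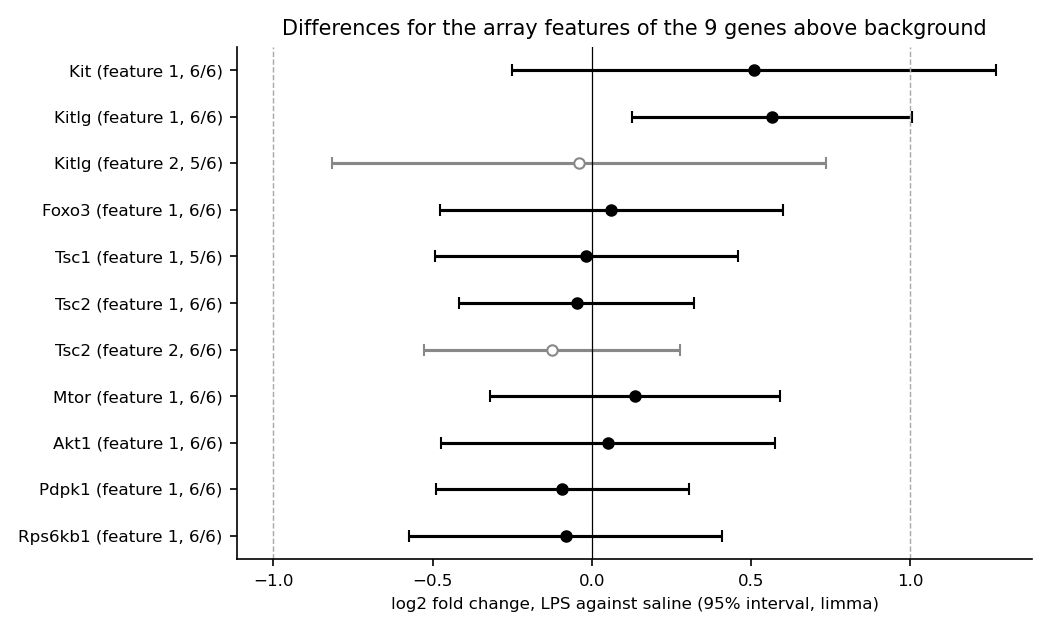
Log2 fold change of LPS against saline with its 95% interval from limma for the features above background, filled points for the feature used for each gene and open points for its other features, with the number of the 6 arrays on which each was well above background. The brightest Kitlg feature (0.57, interval 0.13 to 1.01) was the one whose interval lay wholly above 0, and the dashed lines mark a 2-fold difference.

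*Pdpk1* encodes the kinase that phosphorylates Akt once PI3K has been activated. Its log2 signal was 0.83, 0.77 and 0.80 with LPS and 1.09, 0.78 and 0.81 with saline. Apart from saline replicate 1, the 6 arrays were nearly level, and the log2 fold change was -0.09 (standard error 0.17, 95% interval -0.49 to 0.30).

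*Akt1* encodes the kinase that passes the PI3K signal on to Foxo3 and to the Tsc complex. It gave log2 signals of 1.36, 1.90 and 1.78 with LPS and 1.38, 1.68 and 1.83 with saline. The first replicate was the lowest in both groups, and the groups overlapped throughout. The log2 fold change was 0.05 (standard error 0.22, 95% interval -0.47 to 0.57).

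*Foxo3* encodes the transcription factor that holds primordial follicles at rest while it stays in the nucleus. Its log2 signal was -2.50, -1.98 and -1.99 with LPS and -2.15, -2.48 and -2.03 with saline, so that one array of each group lay well below its companions. The log2 fold change was 0.06 (standard error 0.23, 95% interval -0.48 to 0.60). Transcript level does not show where the Foxo3 protein lay.

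*Tsc1* and *Tsc2* encode hamartin and tuberin, the subunits of the complex that restrains mTOR. *Tsc1* was dim, at -3.71, -3.98 and -4.27 with LPS and -3.89, -3.94 and -4.08 with saline. The LPS arrays lay on both sides of the saline arrays, with a log2 fold change of -0.02 (standard error 0.20, 95% interval -0.49 to 0.46). *Tsc2* gave 1.89, 2.06 and 2.04 with LPS and 1.99 to 2.08 with saline in its brighter feature. Its log2 fold change there was -0.05 (standard error 0.15, 95% interval -0.42 to 0.32), and in its other feature it was -0.12 (standard error 0.17). The pair of *Tsc2* features thus differed in size by less than either standard error.

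*Mtor* encodes the kinase of both mTOR complexes. Its 10 spots per array gave log2 signals of -3.30, -3.04 and -2.94 with LPS and -3.44, -3.19 and -3.06 with saline. Each LPS array lay slightly above the saline array of the same number, but the groups overlapped, and the log2 fold change was 0.14 (standard error 0.19, 95% interval -0.32 to 0.59). *Rps6kb1* encodes the S6 kinase that mTOR complex 1 activates. It gave -0.03, -0.50 and -0.50 with LPS and -0.09, -0.28 and -0.43 with saline, where the first replicate was the highest in both groups. Its log2 fold change was -0.08 (standard error 0.21, 95% interval -0.57 to 0.41).

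Over these 7 genes the smallest unadjusted p in limma was 0.499. Their 95% intervals lay between 0.672-fold and 1.52-fold, so a 2-fold difference in either direction was outside the interval of each of them. Over all 9 members the median log2 fold change was 0.05, with 5 positive and 4 negative values. The median over named genes was -0.03, and over those well above background on all arrays 0.02. By log2 fold change, 98.0% of those 9695 genes lay below *Kitlg*, 97.0% below *Kit* and between 31.3% and 68.9% below each of the other 7.

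Markers of the cells that make the ligand and the receptor were read on the same arrays. Of 13 listed oocyte markers 8 were measured, among them *Gdf9*, *Bmp15*, *Ddx4* and *Zp1* to *Zp3*, and each was well above background on every array. None passed an unadjusted p under 0.05, although 8 of 8 had a positive log2 fold change, with a median of 0.42. Among all genes well above background on all arrays, 53.3% were positive. The mean log2 level of the 8 markers gave a p of 0.4 in the exact permutation test. Their summed level ran from 16.8 to 47.0 times the 75th percentile with LPS and from 20.0 to 33.7 with saline.

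*Kit* was then set against the mean log2 level of these 8 oocyte markers. The mean was -0.78, 0.61 and 0.52 on LPS replicates 1, 2 and 3, and -0.46, -0.68 and 0.15 on saline replicates 1, 2 and 3. LPS replicates 2 and 3 were the highest of the 6 arrays for the markers and for *Kit*, while LPS replicate 1 was the lowest for the markers and the third lowest for *Kit*. *Kit* minus this mean was -1.45 ± 0.46 (SD, n = 3) with LPS and -1.51 ± 0.10 (SD, n = 3) with saline, a difference of 0.06 where *Kit* itself had differed by 0.51. *Foxo3*, which the oocyte also expresses, was lower against these markers by 0.39 with LPS, with groups that overlapped. How far the number of oocytes entered the *Kit* value was not tested.

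**Figure D3:**
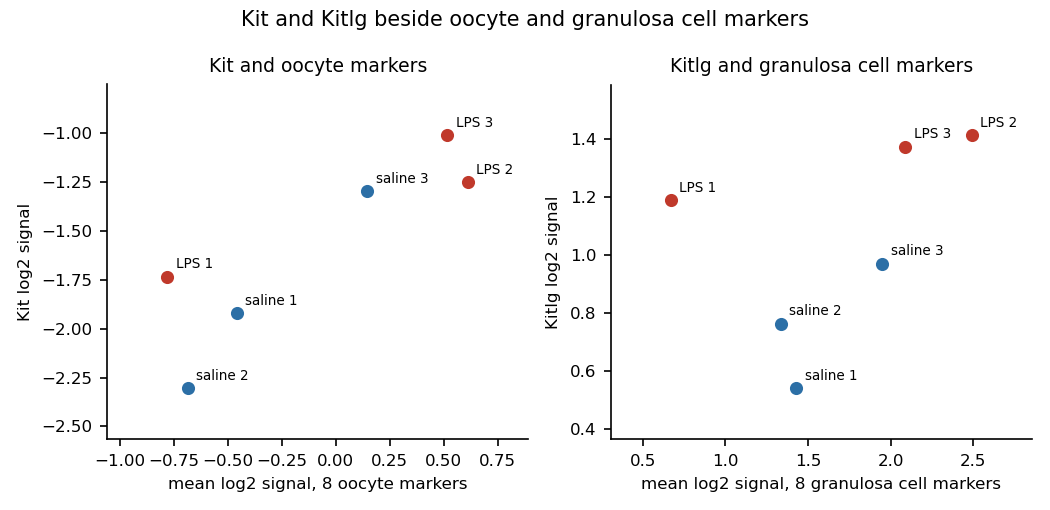
Log2 signal of Kit against the mean log2 signal of 8 oocyte markers, and of Kitlg against that of 8 granulosa cell markers, 1 point an array, coloured by treatment and labelled by replicate. Kit was highest on the LPS arrays with the highest oocyte marker means (0.61 and 0.52). Kitlg on LPS replicate 1 (1.19) lay above all saline arrays, and the granulosa marker mean of that array was the lowest (0.67).

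*Kitlg* was set against granulosa cell markers in the same way. Of 10 listed, 9 were measured and 8 were well above background on all arrays, such as *Amh*, *Inha*, *Fst* and *Gata4*. None passed an unadjusted p under 0.05, 7 of 9 were positive and the median log2 fold change was 0.29, while the summed level ran from 24.4 to 92.2 with LPS and from 42.6 to 71.1 with saline. The mean log2 level of the 8 was 0.67, 2.49 and 2.09 on LPS replicates 1, 2 and 3, and 1.43, 1.34 and 1.95 on saline replicates 1, 2 and 3. LPS replicate 1 was the lowest for these markers and lay above all saline arrays for *Kitlg*. *Kitlg* minus the mean was 0.52, -1.08 and -0.72 with LPS and -0.89, -0.57 and -0.98 with saline. These overlapped, and their means differed by 0.39 (p = 0.7 in the exact permutation test). How far the number of granulosa cells entered the *Kitlg* value was not tested.

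*Kit* is also a receptor of mast cells and melanocytes. Of 9 mast cell markers 8 were measured, and their summed level was 2.51 to 3.52 with LPS and 1.98 to 3.79 with saline. Of the 6 above background in both groups, 5 were positive, with a median log2 fold change of 0.20, and 1 passed an unadjusted p under 0.05. This was *Cpa3*, which encodes a mast cell carboxypeptidase, 0.93 higher with LPS on the log2 scale (standard error 0.26, adjusted p = 0.271 in limma), although it was not well above background on 1 saline array. *Ms4a2*, a subunit of the high-affinity IgE receptor, was well above background on none. Of 4 melanocyte markers, *Tyr* and *Tyrp1* were measured and were well above background on no array.

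Of 7 stroma and theca markers, all well above background on every array, 3 were positive and 4 negative, with a median log2 fold change of -0.15, and their summed level was 85.5 to 97.2 with LPS and 147 to 196 with saline. *Tcf21*, a transcription factor of stromal cells, was higher with LPS at -1.66, -2.00 and -2.20 against -2.76, -3.38 and -2.96 with saline, a log2 difference of 1.08 (standard error 0.24) with an adjusted p of 0.271 in limma. *Cyp17a1*, the theca enzyme of androgen synthesis, was at 0.05, 1.87 and 1.42 with LPS and -0.43, 0.25 and 0.73 with saline, and these groups overlapped. Among the negative markers, *Cyp11a1* had a log2 fold change of -5.20 and *Star* of -2.54. On saline replicates 2 and 3, which also held adrenal transcripts, *Cyp11a1* was at 6.17 and 6.58 and *Star* at 2.69 and 2.63. On saline replicate 1 they were at -2.63 and -3.18, and with LPS at -2.94 to -1.01 and -2.84 to -1.14. Both genes enter the summed levels, and so does the collagen gene *Col1a1*, which had the highest signal of the list with LPS and on saline replicate 1. It was at 6.51, 6.46 and 6.26 with LPS and 7.14, 6.05 and 6.49 with saline. These groups overlapped, with a log2 fold change of -0.15 (standard error 0.29). The separate ranges of the sums thus follow the brightest features and do not stand for the list as a whole. The part of stroma and theca cells in the *Kit* value was not tested.

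Saline replicates 2 and 3 held adrenal transcripts. The summed level of 7 adrenal cortex markers was 165 and 221 on these arrays, 1.35 on saline replicate 1 and 0.805 to 1.67 on the LPS arrays. For 7 adrenal medulla markers it was 86.2 and 56.1, against 5.94 on saline replicate 1 and 3.12 to 5.51 on the LPS arrays. The 4 red blood cell markers summed to 80.9 to 125 with LPS and to 104 to 154 with saline. All 4 had a negative log2 fold change, with a median of -0.68. Of them 2 passed an unadjusted p under 0.05 in limma, *Alas2* at -0.85 and *Slc4a1* at -1.17, each with LPS wholly below saline. Neither passed after adjustment. Among all genes well above background on all arrays, 2.73% were lower at that p and 7.06% had LPS below without overlap. Between saline replicate 1 and the mean of the other saline arrays, the members differed by 0.06 to 0.38 on the log2 scale in either direction. *Akt1*, at -0.38, and *Kitlg*, at -0.33, were lower on saline replicate 1, and *Pdpk1* was higher there by 0.29. Without both arrays, an alternative added after the data had been seen that leaves saline replicate 1 alone and assumes that it varied like the LPS arrays, the log2 fold change was 0.79 for *Kitlg* (standard error 0.25) and 0.59 for *Kit*. Since saline replicate 1 was the lowest array for *Kitlg*, leaving out the other saline arrays could only enlarge its difference, and the part of the adrenal transcripts in these values was not tested.

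Around the members, 75 other genes of the pathway were listed, of which 67 had a feature and 60 were well above background in both groups, on 1 array or more. Of the 60, 30 had a positive and 30 a negative log2 fold change, with a median of -0.0028. At an unadjusted p under 0.05, 1 was higher (*Pik3r1*) and 2 were lower (*Rps6ka1* and *Sod2*), none passed after adjustment, and the shares stand beside 1.73% higher and 2.73% lower among all genes well above background. With the replicate number as a block, 7 genes passed the unadjusted p: these 3 and *Gab1*, *Inppl1*, *Phlpp2* and *Sgk1*. Of them 2 were higher and 5 lower, and in the same fit 3.05% of all genes well above background on all arrays were higher and 3.73% lower. The groups did not overlap for 3 of the 60 with LPS above (*Pik3r1*, *Cdkn1b* and *Eif4e*), beside 5.72% of all genes well above background. With LPS below they did not overlap for 3 (*Phlpp2*, *Rps6ka1* and *Sod2*), beside 7.06%. These counts of groups without overlap were not above those shares. All such shares here are over genes well above background on all arrays, a stricter set than the 60.

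Of 16 receptor adapters and effectors, 12 were well above background in both groups, 8 positive and 4 negative, with a median log2 fold change of 0.07. None of the 12 passed an unadjusted p under 0.05. The 3 with the largest differences among those above background on all arrays were *Gab1*, a docking protein for PI3K, at 0.61 (standard error 0.26), the kinase *Src* at 0.45 (standard error 0.23) and the ubiquitin ligase *Cblb* at -0.26 (standard error 0.20). *Gab1* was at -3.08, -2.83 and -2.54 with LPS and -3.47, -3.79 and -3.02 with saline, so that only saline replicate 3 reached into the LPS range. The adapter *Crkl* lay well above background on each of the 3 LPS arrays but on none with saline. Its measured means were -3.91 and -4.56 (unadjusted p = 0.0372 and adjusted p = 0.284 in limma). A saline signal under the dimmest one well above background on its array was also replaced by that limit, which gave a 1.45-fold difference. LPS replicate 2 and saline replicate 2 were nearly level (-4.42 and -4.44), so this is not a least difference. *Lyn* was well above background on no array. Within the slide row that held both groups, *Gab1* was at 0.35, *Src* at 0.10 and *Cblb* at -0.41, and without saline replicates 2 and 3 *Cblb* was at 0.0074.

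**Figure D4:**
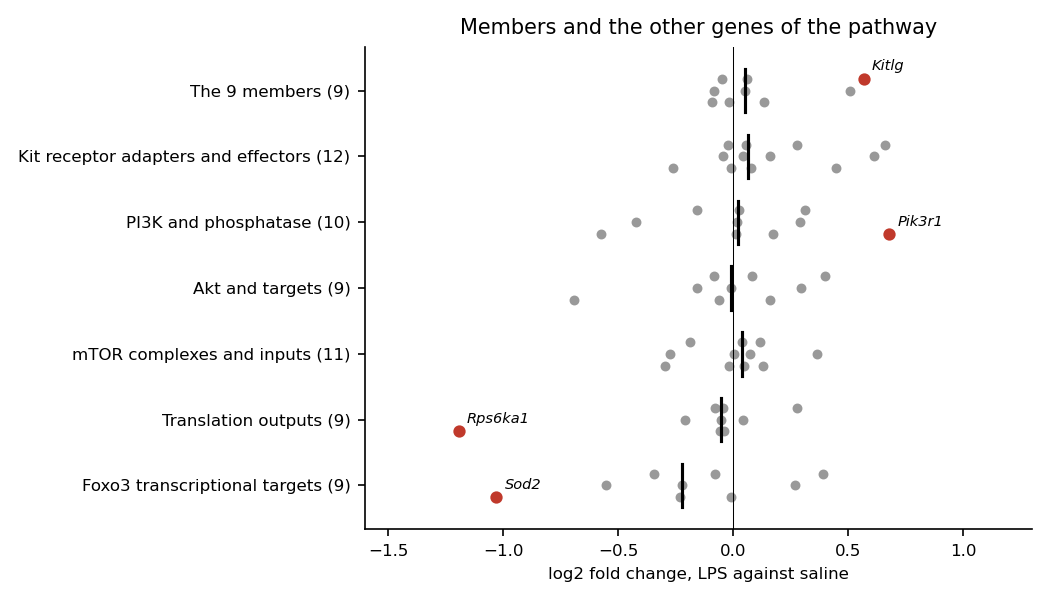
Log2 fold change of LPS against saline for the 9 members and for the 60 other pathway genes above background in both groups, 1 row a list and 1 point a gene, with a bar at the list median and red points for genes at an unadjusted p under 0.05. Medians lay between -0.22 (Foxo3 targets) and 0.07 (receptor adapters), and Rps6ka1 (-1.19) and Sod2 (-1.03) were the lowest points.

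Among 10 genes of PI3K and the phosphatases that oppose it, 7 were positive and 3 negative, with a median of 0.02. *Pik3r1*, the regulatory subunit that binds activated receptors, was at 0.72, 0.27 and 0.73 with LPS and 0.25, -0.45 and -0.11 with saline. LPS replicate 2 lay just above saline replicate 1, and the log2 fold change of 0.68 had an unadjusted p of 0.0294 in limma. Without saline replicates 2 and 3 it was 0.33. Within the slide row that held both groups it was 0.82 and no longer passed (unadjusted p = 0.0588 in limma).

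Of 9 genes of the Akt list, 4 were positive and 5 negative, with a median of -0.0099, and none passed an unadjusted p under 0.05. The 3 largest were *Sgk1*, a kinase related to Akt, at -0.69 (standard error 0.39), *Cdkn1b*, which encodes the cell cycle inhibitor p27, at 0.40 (standard error 0.17), and *Akt1s1*, an mTOR inhibitor that Akt phosphorylates, at 0.30 (standard error 0.28). *Cdkn1b* was at 1.14, 1.39 and 1.54 with LPS and 0.98, 0.90 and 0.99 with saline, so that every LPS array lay above the saline arrays. *Sgk1* was at -1.05, 0.16 and 0.04 with LPS and -0.12, 0.56 and 0.78 with saline, and the first replicate was the lowest in both groups. Without saline replicates 2 and 3, *Sgk1* was at -0.17, *Cdkn1b* at 0.37 and *Akt1s1* at 0.89, and without saline replicate 1 *Akt1s1* was at 0.0011. Within the slide row that held both groups *Sgk1* was at -1.46, where it passed (unadjusted p = 0.00855 in limma), *Cdkn1b* at 0.19 and *Akt1s1* at 0.24.

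Of 11 genes of the mTOR complexes and their inputs above background in both groups, 7 were positive and 4 negative, with a median of 0.04, and none passed an unadjusted p under 0.05. Among those well above background on all arrays the 3 largest were *Tbc1d7*, the third subunit of the Tsc complex, at 0.36 (standard error 0.21), *Ddit4*, an mTOR inhibitor induced by stress, at -0.29 (standard error 0.27), and *Rptor*, a scaffold of mTOR complex 1, at -0.19 (standard error 0.16). Without saline replicates 2 and 3, *Ddit4* was at 0.21, *Tbc1d7* at 0.28 and *Rptor* at -0.027, and within the slide row that held both groups *Ddit4* was at -0.53 and *Tbc1d7* at 0.11.

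In the list of translation outputs, 2 of 9 genes were positive and 7 negative, with a median of -0.05. *Rps6ka1*, a ribosomal S6 kinase activated by MAPK, was at 1.46, 1.26 and 1.25 with LPS and at 1.55, 3.17 and 2.83 with saline. Of 9 Foxo3 target genes above background in both groups, 2 were positive and 7 negative, with a median of -0.22. How far the saline arrays that held adrenal transcripts entered this median was not tested. *Sod2*, the mitochondrial superoxide dismutase, was at 0.46, 0.70 and 0.69 with LPS and at 0.70, 2.15 and 2.09 with saline. For both genes saline replicate 1 lay close to the LPS arrays, and the high values were those of the saline arrays that held adrenal transcripts. The log2 fold changes were -1.19 (standard error 0.41) for *Rps6ka1* and -1.03 (standard error 0.40) for *Sod2*. Without saline replicates 2 and 3 they were -0.23 and -0.09, and without saline replicate 1 they were -1.68 and -1.50. Without saline replicate 1 both passed after adjustment, at 0.0282 and 0.0298 in limma. In that fit, whose saline arrays both held adrenal transcripts, 161 named genes passed, against 0 with all arrays.

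The genes whose log2 values ran most like each of *Kit*, *Kitlg* and *Foxo3* over the 6 arrays were listed as a description, among 9694 other genes above background on every array. For *Kit* they were *Gnpat* (Pearson r = 0.989), *Nsun5* (0.988) and *Ubac2* (0.984). For *Kitlg* they were *Smyd5* (0.993), *Exo5* (0.991) and *Ccdc134* (0.991), and for *Foxo3* they were *Lzts1* (0.995), *Fmo5* (0.982) and *Ptprk* (0.981). With so few arrays, which also share slide position, treatment and makeup, 172 genes had an r above 0.9 with *Kit*, 106 with *Kitlg* and 119 with *Foxo3*.

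**Figure D5:**
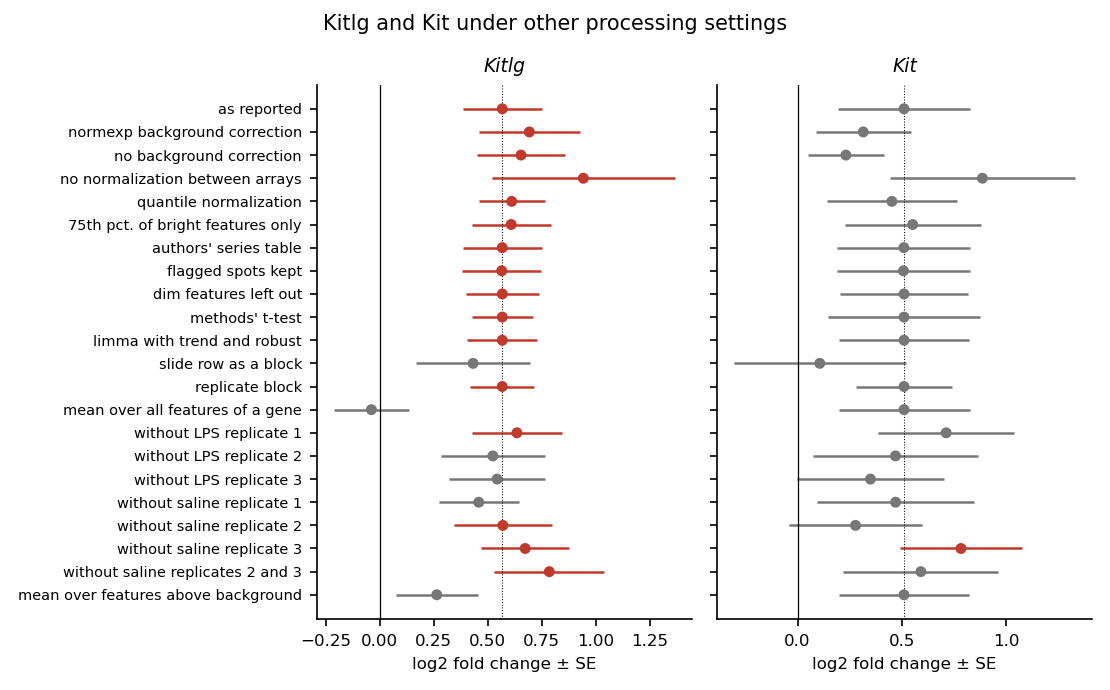
Log2 fold change of Kitlg (brightest feature) and Kit with its standard error under the reported setting and 21 alternatives, 1 row a setting, in red where the unadjusted p was under 0.05. Kit lay between 0.11 and 0.89, and Kitlg between -0.039 (mean over its 3 features) and 0.94 (no scaling, where the median of all genes was 0.34).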

How the data were processed

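Per the labels and the paper's methods, RNA of PND 7 ovaries was amplified, coupled to Cy3 and hybridized to Agilent rat arrays. The authors deposited the spot intensities of Agilent Feature Extraction 10.5.1.1. Their processed signal has the background subtracted and a surrogate in place of values too dim to measure. A deposited table of the whole study holds the same intensity values within 0.497%, unscaled. The labels' processing notes also name lumi, and no normalization or test is given for the arrays in the sources used here.

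Log2 processed signal was set relative to the 75th percentile of each array's probes. Spots marked as non-uniform or population outliers were removed (3 of the members' spots over all arrays, of 38 an array), spots of a feature were averaged, and at least 2 unmarked arrays a group were required, or 1 with an array left out. limma 3.58.1 in R 4.3.3 compared LPS with saline over all 6 arrays and 30367 features, with Benjamini-Hochberg adjustment over all of them. The procedure was tested on simulated data. Genes were named through RefSeq accessions (GRCr8 table, 17998 features matched), with the feature of highest mean signal for a gene. The 75th percentile of the signal ran from 2824 to 6754 and the share of spots well above background from 66.3% to 76.0%. No spot was saturated, and the number of arrays limits the precision.

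The members and lists were chosen with earlier results of these data known, and 1 listed gene is not reported here. The genes named were all members, genes of each pathway list at an unadjusted p under 0.05 and otherwise its 3 largest differences among genes well above background on all arrays, and the 3 genes most like *Kit*, *Kitlg* and *Foxo3*. *Eif4e*, *Phlpp2* and *Inppl1*, named with their counts, and the stroma, mast cell and red blood cell markers were chosen after their values were seen. Arrays of the same replicate number deviated together from their group means (correlations over features 0.298, 0.215 and 0.254), and this alone is the basis for pairing. Alternatives covered background correction, scaling, the authors' table, marked and dim spots, the test (the methods' t-test stands for the analysis of variance named for the study's data in general), slide row, replicate block, the choice of feature and each array left out.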

Additional observations from a re-analysis of the deposited data

How the results depend on the processing

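Across 21 alternatives *Kit* stayed positive (0.11 to 0.89, log2) and *Kitlg* was positive in 20 and at an unadjusted p under 0.05 in 15. The adjusted p of *Kitlg* ran from 0.176 to 0.963. Its 3-feature mean, which includes the feature well above background on no array, was -0.039, and that of the pair above background was 0.26. No member reached 2-fold at an unadjusted p under 0.05. The number of members at that p, 1 as reported, was 0 with the slide row as a block and with either mean over features, and 0 to 2 with single arrays left out. The number of pathway list genes, 3 as reported, was 6 with normexp, 7 without background correction, 5 with the percentile over bright features, without dim features or with either mean over features, 1 in the methods' t-test, 1 with the row block, 7 with the replicate block, and 0 to 7 with single arrays left out. The replicate block changed no other call: *Kitlg* kept 0.57 (unadjusted p = 0.0149 in limma). The cause of these shifts was not tested.

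Signs near 0 turned. With normexp they were 0.071 (*Tsc2*), -0.033 (*Mtor*) and 0.031 (*Pdpk1*), and without background correction 0.075, -0.054 and 0.033, with *Foxo3* at -0.0083. Without scaling, where the median of all genes was 0.34, *Tsc1* was 0.36, *Tsc2* 0.33, *Pdpk1* 0.28 and *Rps6kb1* 0.29. Quantile normalization gave -0.015 for *Foxo3* and 0.029 for *Tsc2*, and the percentile over bright features 0.024 for *Tsc1*. With the row block *Foxo3* was -0.28, *Tsc1* 0.26, *Mtor* -0.071, *Akt1* -0.27 and *Rps6kb1* 0.23. Without saline replicates 2 and 3 *Foxo3* was -0.0068. With single arrays left out, *Foxo3* ran from -0.069 to 0.23, *Tsc1* from -0.16 to 0.13, *Tsc2* from -0.079 to 0.0076, *Akt1* from -0.076 to 0.21, *Pdpk1* from -0.15 to 0.0047 and *Rps6kb1* from -0.24 to 0.0058.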

Other observations

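Within the LPS group, replicate 1 stood apart from replicates 2 and 3 in several members. Against their mean it was lower by 0.61 for *Kit*, 0.52 for *Foxo3* and 0.47 for *Akt1* on the log2 scale, and higher by 0.47 for *Rps6kb1* and 0.42 for *Tsc1*. *Pdpk1* differed by 0.04. LPS replicate 1 lay in the same slide row as the saline arrays and had the lowest oocyte marker mean of all 6 arrays, and the part of either in these values was not tested.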
